A study of Mus musculus with 9 samples.

Results

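Among 444 genes listed as changed in the muscularis externa after abdominal surgery, 50 genes are described here that had their highest mean 3 h after the operation, a lower mean at 24 h and their lowest mean in controls. The muscularis externa is the outer muscle coat of the bowel wall, and in this study it was taken from the small intestine. Intestinal manipulation (IM) is a standardised surgical handling of the bowel that is used in mice as a model of postoperative ileus. RNA-Seq was done on 3 libraries of muscularis externa 3 h after IM (IM3h), 3 libraries 24 h after IM (IM24h) and 3 control libraries, all from BL6 mice aged 8 to 12 weeks and, as far as the labels say, without any genetic change. The labels call the controls sham operated, whereas naive is the word in the table headers and the paper's methods, and the sources used here do not settle it. Nothing in the labels ties a library to 1 mouse of its own. The 3 IM3h libraries carry library numbers of another series than the 6 others, so that a difference between the library series and an effect of the 3 h time point cannot be told apart.

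The genes were chosen by their measured group means. A transcript was taken from the table of changed genes if its IM3h mean was above its IM24h mean and its IM24h mean above its control mean, and 35 named genes were left out by the rule. This gave 63 transcripts of 50 genes, out of 502 transcripts of 444 genes in that table. The same order of means was found in 94 transcripts of 76 genes in all, of which 31 transcripts of 26 genes were among those left out. No gene of the set had a transcript with another order of means in that table. All levels below are group means of normalized counts per transcript, in most cases 1 transcript a gene. The tables used give no value for a single library. The spread between replicates is therefore unknown, and none of the differences below was tested against it. All 502 transcripts differed at least 2-fold between every pair of group means. Therefore each of the 50 genes was bound to lie at least 4-fold above control at 3 h and at least 2-fold above it at 24 h, and genes with smaller differences are absent.

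Tissue injury sets off a fast transcriptional response in most cell types. Immediate early genes, many of which encode transcription factors, are transcribed without new protein synthesis, and they are followed by genes for secreted ligands and for proteins that damp the same pathways. Feedback inhibitors of growth factor receptors, of cytokine receptors and of NF-kB are typical of the second wave. Oxidative and protein-folding stress add the target genes of NRF2, which acts at antioxidant response elements, and of heat shock factor, which acts at heat shock elements. In the gut muscle coat these responses can take place in smooth muscle, neurons, enteric glia, interstitial cells and resident macrophages alike. In a bulk sample, more cells of a type and more RNA per cell cannot be told apart.

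The promoters of the set were searched for 8 known motifs, among them the cAMP response element (CRE), which is bound by CREB and ATF proteins. RefSeq promoter windows of assembly GRCm38.p6, each reaching from 250 bases before to 50 bases after a transcription start, were at hand for 40 of the 50 genes (57 windows). Genes named without a window were Pvr, Rnd1, Gm13889, Trib1, Cdr2l, Arc, Gem, Rnf122 and Pqlc1. The full CRE (TGACGTCA, a palindrome) lay in the windows of 6 of 40 genes, and the sites of 5 of them are shown so that the letters around the shared core can be compared. Each is given in the direction of its gene, with the CRE in capitals.
Errfi1 (chr4:150855011-150855034, plus strand): gcgggcgtTGACGTCAcgttgtcg
Areg (chr5:91139530-91139553, plus strand): ctggtccgTGACGTCAcgggcggt
Wsb1 (chr11:79254718-79254741, minus strand): tgatggtcTGACGTCAcccactac
Ccnl1 (chr3:65958252-65958275, minus strand): cggcgtggTGACGTCAgggcggaa
Suv39h2 (chr2:3475056-3475079, minus strand): gtctccgcTGACGTCAgaacgcct

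The sixth gene was Tmem183a, whose 2 overlapping windows hold the same site. Errfi1 and Areg also carried the TATA letters TATAAA closer to the start, 28 bases upstream of it in Errfi1 and 31 bases upstream in Areg.

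A further group of sites is shown because their genes belong to well known inducible families. Capitals mark the motif: TGANTCA for AP-1, the dimer of FOS and JUN proteins, the NF-kB site by its name, and GAANNTTC for the heat shock element.
Csrnp1, AP-1 (chr9:119983111-119983133, minus strand): aggcttggTGAGTCAcggacccc
Srxn1, AP-1 (chr2:152105471-152105493, plus strand): attcacccTGAGTCAgcggccgg
Fas, AP-1 (chr19:34290440-34290462, plus strand): tgcagtggTGAGTCAgtgggttt
Tnip1, NF-kB (chr11:54962980-54963005, minus strand): catcatggGGGAATTCCCctcctgcc
Tlr2, NF-kB (chr3:83841763-83841788, minus strand): gacacctgGGGAATTCCCacacggag
Hspa1b, heat shock element (chr17:34959327-34959350, minus strand): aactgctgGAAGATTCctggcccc

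Across the 50 genes the median group mean was 26.8 normalized counts in IM3h, 7.30 in IM24h and 1.80 in control. The median ratio to control was 7.28 at 3 h (range 4.30 to 75.8) and 2.60 at 24 h (2.04 to 8.59 in the 49 genes shown here). Over all 444 genes of the table the median ratio to control was 2.08 at 3 h and 2.58 at 24 h. The 24 h ratios of the set thus lay near the median of the table, and the 3 h ratios above it, as the rule required. IM24h means were 39.1% of the IM3h means in the median. When the control mean was subtracted from both, the median gene kept 27.5% of its 3 h excess at 24 h, with a range of 4.92% to 44.5%. This share is called the excess left at 24 h below.

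All 50 genes lay at least 4-fold above control at 3 h, which the 2-fold steps of the table enforce, against 25.7% of all genes in the table. At 24 h, 13 of the 50 still lay at least 4-fold above control, against 35.6% of all genes. In 9 of the 50 the IM24h mean was at least 4-fold below the IM3h mean, against 15.5% of all genes. The rule used these same means, so nothing is read from these counts about the set.

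**Figure D1:**
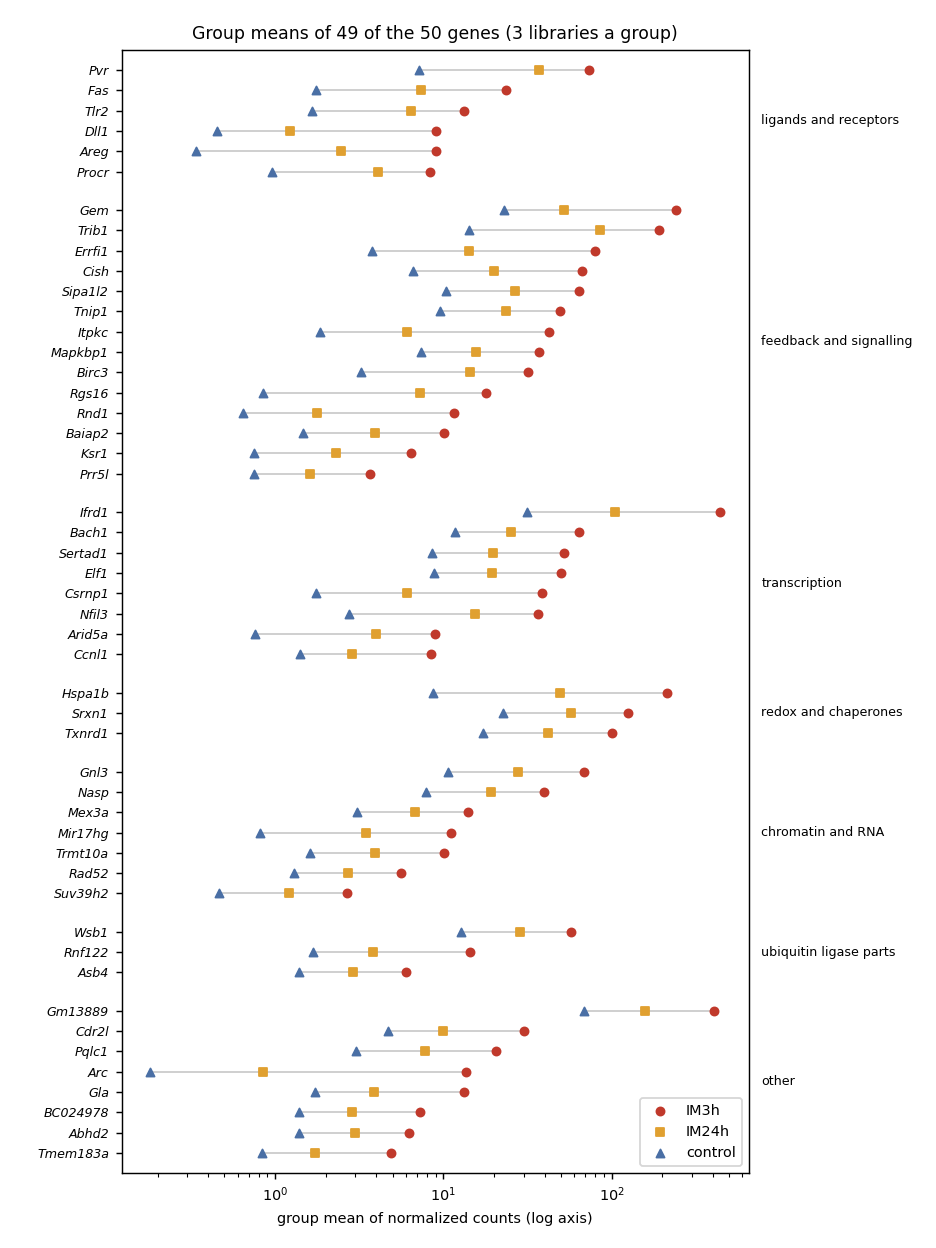
Group means of normalized counts (log axis) of 49 of the 50 genes, sorted by role and by IM3h mean, with circles for IM3h, squares for IM24h and triangles for control (each the mean of 3 libraries; no error can be given). Levels span from 0.181 for Arc in control to 443 for Ifrd1 in IM3h.

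Ligands and receptors made up 6 genes, with a median ratio to control of 11.9 at 3 h and 4.22 at 24 h. Areg encodes amphiregulin, a ligand of the epidermal growth factor (EGF) receptor. Its mean was 8.99 in IM3h, 2.47 in IM24h and 0.338 in control, which gave ratios to control of 26.6 at 3 h and 7.30 at 24 h. Dll1, a ligand of Notch receptors, had means of 9.06 in IM3h, 1.22 in IM24h and 0.452 in control. Thus Areg and Dll1 had nearly the same mean at 3 h, but 24.6% of the excess was left at 24 h for Areg and 8.93% for Dll1. Fas, the death receptor of the TNF receptor family, had 23.4 in IM3h, 7.35 in IM24h and 1.75 in control, with 25.8% of the excess left.

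The other 3 receptors kept the largest shares of their excess in the whole set. Pvr, the mouse homologue of the poliovirus receptor and a ligand for receptors on NK and T cells, had 73.8 in IM3h, 36.8 in IM24h and 7.12 in control, and 44.5% of the excess was left. Procr, the endothelial protein C receptor, had 8.30 in IM3h, 4.07 in IM24h and 0.957 in control, with 42.4% left. Tlr2, a pattern recognition receptor for bacterial lipoproteins, had 13.3 in IM3h, 6.42 in IM24h and 1.65 in control, with 40.8% left. Trib1, Arid5a and Birc3 came next. Pvr also stands close to the 2-fold limit of the table, since its IM24h mean was only 2.01-fold below its IM3h mean.

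Regulators of signalling were the largest group with 14 genes, and many of them are known as feedback inhibitors. Errfi1 (MIG6) binds and inhibits the EGF receptor. It had 80.1 in IM3h, 14.3 in IM24h and 3.76 in control, a ratio to control of 21.3 at 3 h and 3.80 at 24 h. Cish, an SH2 protein that damps STAT5 signalling, had 66.6 in IM3h, 20.1 in IM24h and 6.56 in control. Tnip1 (ABIN1) works with A20 against NF-kB activation. Its mean was 49.5 in IM3h, 23.5 in IM24h and 9.61 in control. Birc3, a ubiquitin ligase of TNF receptor complexes that holds down cell death, had 32.0 in IM3h, 14.5 in IM24h and 3.25 in control. Of the excess, 34.8% was left for Tnip1 and 39.0% for Birc3, against 13.8% for Errfi1 and 22.5% for Cish.

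Regulators of kinases and scaffolds followed the same order of means by definition, but with different shares left. Trib1, a pseudokinase that directs C/EBP proteins to degradation, was among the most abundant genes of the group, with 192 in IM3h, 85.1 in IM24h and 14.1 in control, and it kept 39.9% of its excess. Itpkc, a kinase that phosphorylates inositol trisphosphate, had 42.2 in IM3h, 6.10 in IM24h and 1.84 in control, and 10.6% was left. Mapkbp1, a scaffold of JNK signalling, had 37.0 in IM3h, 15.7 in IM24h and 7.36 in control. Sipa1l2, of a family of Rap GTPase activating proteins, had 64.0 in IM3h, 26.8 in IM24h and 10.3 in control. Ksr1, a scaffold of the RAF, MEK and ERK cascade, and Prr5l, a partner of mTORC2, were low, with an IM3h mean of 6.39 for Ksr1 and 3.67 for Prr5l.

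Small G protein regulators and G protein signalling were represented by 4 further genes. Gem, a small GTP-binding protein that inhibits voltage-gated calcium channels, had 241 in IM3h, 52.3 in IM24h and 23.0 in control. Its ratio to control was 10.5 at 3 h but only 2.28 at 24 h, and 13.5% of the excess was left. Rnd1, a small GTP-binding protein that loosens actin stress fibres, had 11.5 in IM3h, 1.78 in IM24h and 0.643 in control, with 10.4% left. Baiap2 (IRSp53), which links Rac and Cdc42 to actin at the membrane, had 10.1 in IM3h, 3.91 in IM24h and 1.47 in control, with 28.2% left. Rgs16, which speeds up the GTPase activity of G protein alpha subunits, had 17.9 in IM3h, 7.24 in IM24h and 0.844 in control. The 24 h ratio of Rgs16, 8.59, was the highest among the 49 genes shown, but it rests on a control mean below 1. With 1 added to every mean it was 4.47, below Trib1 with 5.69, Hspa1b with 5.21 and Pvr with 4.65.

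**Figure D2:**
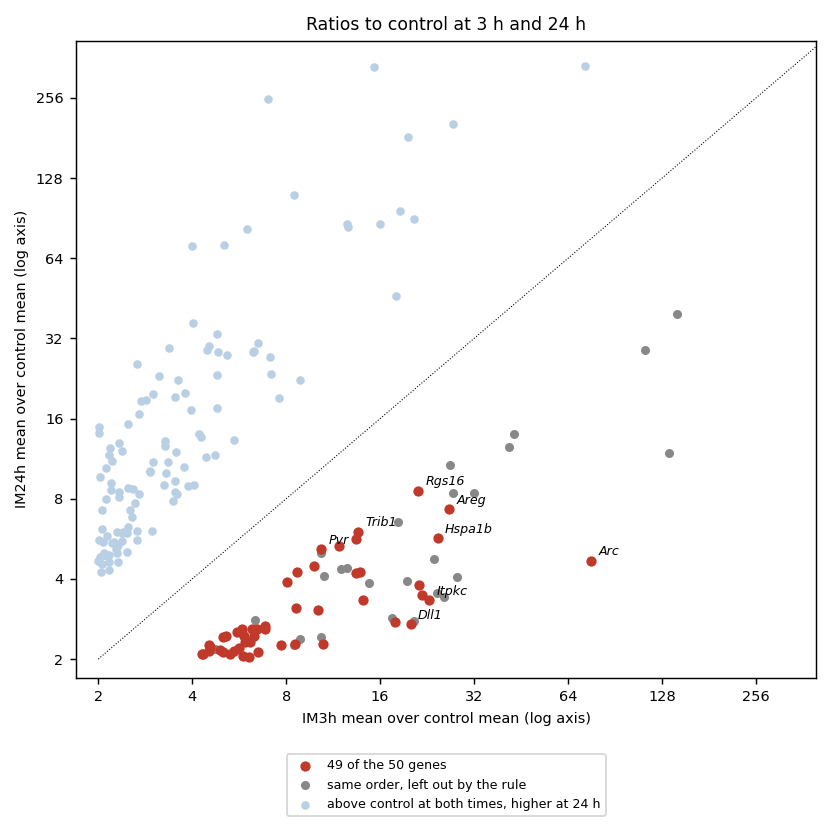
Ratio of the IM24h mean to control against the ratio of the IM3h mean to control (both axes log), for 49 of the 50 genes, the 26 genes of the same order left out by the rule and the 115 genes that were above control at both times and higher at 24 h. On the dotted line both ratios are equal, and the gap around it is made by the 2-fold steps of the table. Arc (75.8 at 3 h) lies farthest to the right among the 49.

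Transcription regulators comprised 8 genes with a median ratio to control of 8.99 at 3 h and 2.83 at 24 h. Ifrd1, a transcriptional coregulator, had the highest IM3h mean of the set, with 443 in IM3h, 105 in IM24h and 31.4 in control. Csrnp1, a nuclear protein first described as induced by AXIN1, had 38.5 in IM3h, 6.12 in IM24h and 1.76 in control, and 11.9% of the excess was left. Nfil3, a bZIP repressor needed for the development of innate lymphoid cells, had 36.7 in IM3h, 15.5 in IM24h and 2.74 in control, and 37.4% was left. Arid5a, an RNA-binding protein that stabilises Il6 mRNA, also kept a large share of 39.6%, with low means of 8.94 in IM3h, 3.996 in IM24h and 0.754 in control.

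The other 4 transcription regulators lay lower at 24 h relative to control. Bach1, a haem-sensitive repressor of NRF2 target genes, had 64.0 in IM3h, 25.3 in IM24h and 11.8 in control. Sertad1, a coregulator that binds CDK4, had 52.4 in IM3h, 19.8 in IM24h and 8.56 in control. Elf1, an ETS factor, had 50.1 in IM3h, 19.5 in IM24h and 8.85 in control. These 3 genes had ratios to control between 5.44 and 6.12 at 3 h and between 2.15 and 2.32 at 24 h, and 25.7% to 25.9% of the excess was left. Ccnl1, cyclin L1, which is linked to splicing, had 8.49 in IM3h, 2.86 in IM24h and 1.40 in control, and its 24 h ratio of 2.04 was the lowest of the set.

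Redox enzymes and a chaperone formed a small but abundant group. Srxn1 (sulfiredoxin), which restores overoxidised peroxiredoxins, had 126 in IM3h, 57.3 in IM24h and 22.6 in control. Txnrd1, the cytosolic thioredoxin reductase, had 101 in IM3h, 41.7 in IM24h and 17.1 in control. Both are textbook NRF2 targets, and their ratios to control were alike: 5.57 for Srxn1 and 5.88 for Txnrd1 at 3 h, and 2.53 for Srxn1 and 2.43 for Txnrd1 at 24 h. Hspa1b, an inducible HSP70 chaperone, had 213 in IM3h, 49.5 in IM24h and 8.69 in control, that is 24.5-fold above control at 3 h and 5.70-fold at 24 h. Its near-identical neighbour Hspa1a, which the rule left out, had 266 in IM3h, 38.4 in IM24h and 9.42 in control. Reads can be split between these paralogues, so the value of either one is uncertain.

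Chromatin, RNA or the nucleolus are the site of action of 7 genes, with a median ratio to control of 5.77 at 3 h and 2.45 at 24 h. Gnl3 (nucleostemin), a nucleolar GTPase, had 68.7 in IM3h, 27.6 in IM24h and 10.6 in control. Nasp, a histone chaperone, had 39.7 in IM3h, 19.2 in IM24h and 7.91 in control, with 35.3% of the excess left. Mir17hg, the host transcript of the miR-17-92 cluster, had the highest 3 h ratio of the group, 13.8, with means of 11.1 in IM3h, 3.46 in IM24h and 0.811 in control. Only this transcript was measured and not the mature miRNAs. Mex3a, an RNA-binding protein, had 13.9 in IM3h, 6.76 in IM24h and 3.06 in control. Trmt10a, a tRNA methyltransferase, and Suv39h2, a histone methyltransferase, had 3 h ratios of 6.32 for Trmt10a and 5.77 for Suv39h2. Rad52, a DNA repair protein, had 5.58 in IM3h, 2.70 in IM24h and 1.30 in control, and its 3 h ratio of 4.30 was the lowest of the whole set. The Rad52 and Suv39h2 values are of noncoding transcripts of these genes.

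Ubiquitin ligase parts were Wsb1, Rnf122 and Asb4. Wsb1, a SOCS box protein with WD repeats, had 57.8 in IM3h, 28.7 in IM24h and 12.7 in control, and 35.4% of the excess was left. Asb4, a further SOCS box protein, had 5.97 in IM3h, 2.89 in IM24h and 1.38 in control, and 33.0% was left. Rnf122, a RING finger protein, had an IM3h mean of 14.3 and kept 16.9%. Wsb1 and Asb4 were among the 5 genes with the lowest 3 h ratios of the set, 4.53 for Wsb1 and 4.33 for Asb4.

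Arc had the highest 3 h ratio of all 50 genes and the lowest share left. It is an immediate early gene best known from synapses of the brain. The mean was 13.7 in IM3h, 0.847 in IM24h and 0.181 in control, so that the 3 h ratio of 75.8 rests on a control mean far below 1. With 1 added to every mean, the ratio to control was 12.5 at 3 h and 1.56 at 24 h. By that measure Arc was no longer the highest at 3 h. Among the named genes, Hspa1b had 22.1, Errfi1 17.0, Itpkc 15.2, Csrnp1 14.3, Ifrd1 13.7 and Trib1 12.8. The IM24h mean of Arc was 16.2-fold below its IM3h mean, and 4.92% of the excess was left.

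The remaining genes have no shared role. Gm13889, a predicted gene, had the highest control mean of the set, with 404 in IM3h, 158 in IM24h and 68.3 in control, and 26.8% left. Cdr2l, a paralogue of a cerebellar degeneration antigen, had 30.3 in IM3h, 9.94 in IM24h and 4.66 in control. Pqlc1, which codes for a membrane protein with PQ loops, had 20.6 in IM3h, 7.81 in IM24h and 3.01 in control. Gla, the lysosomal alpha-galactosidase A, had 13.3 in IM3h, 3.89 in IM24h and 1.73 in control. BC024978 had 7.29 in IM3h, 2.87 in IM24h and 1.38 in control. Abhd2, a hydrolase, had 6.29 in IM3h, 2.97 in IM24h and 1.39 in control. Tmem183a, measured by a noncoding transcript, had 4.86 in IM3h, 1.72 in IM24h and 0.838 in control. The 24 h ratios of these last 3 genes were 2.05 to 2.14 and thus close to the limit of the table.

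**Figure D3:**
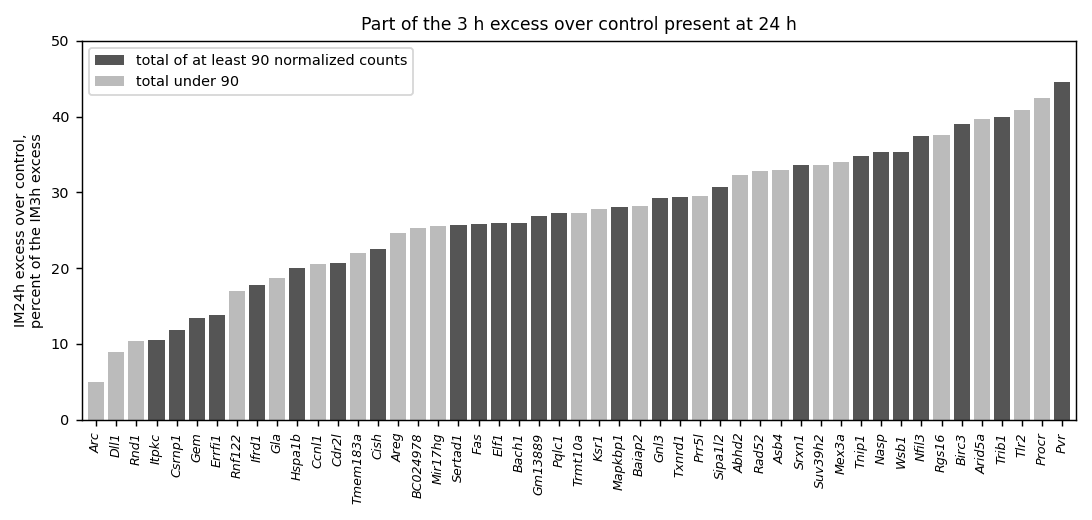
Excess of the IM24h mean over control as a percent of the excess of the IM3h mean over control, for 49 of the 50 genes in rising order, with dark bars where the total over the 9 libraries was 90 normalized counts or more and light bars where it was lower. The values run from 4.92% for Arc to 44.5% for Pvr, and by the 2-fold steps of the table none can reach 50%.

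The share left at 24 h varied within the set, and cuts at 20% and 35% are used here only to describe it. It was below 20% in 11 genes, from 20% to below 35% in 29 and 35% or more in 10. Below 20% were Arc, Dll1, Rnd1, Itpkc, Csrnp1, Gem, Errfi1, Rnf122, Ifrd1, Gla and Hspa1b. At 35% or above were Pvr, Procr, Tlr2, Trib1, Arid5a, Birc3, Rgs16, Nfil3, Wsb1 and Nasp. Of the 6 early genes of calcium and synaptic activity in the set (listed below), Arc, Csrnp1, Gem and Ifrd1 were in the first of these groups and Nfil3 and Rgs16 in the last. Of the 6 early genes of that list outside the set, Fos, Atf3, Egr1, Rcan1 and Ier2 had 9.86% to 17.6% left and Fosl2 31.5%. Of the 5 NF-kB target and feedback genes in the set, Birc3, Tlr2 and Trib1 were in the last group and none in the first. The NF-kB genes of the same order outside the set had 8.14% left for Cxcl1, 15.9% for Icam1, 17.0% for Nfkbia and 27.1% for Ccl2, so the members do not stand for the whole list. Members with a total of at least 90 (27 genes) had a median of 27.3% left, and the 23 with lower totals 27.8%.

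Members have their order of means by the rule, so in lists of pathway genes only genes outside the set are counted for it. Over the whole table, 76 of 444 genes (17.1%) had this order. Of the 394 genes outside the set it was 26 (6.60%), all of them left out by name. Taking out the members lowered this share by the rule itself, so nothing is read from the list counts beside it. Of 27 NRF2 related genes, 6 were in either table, and Bach1, Srxn1 and Txnrd1 were members. The order was also that of the other 3, Gsr, Maff and Hmox1. The Gsr transcript was not among the 502 changed ones, and its differences were small. It had 7.81 in IM3h, 6.99 in IM24h and 5.31 in control, only 1.47-fold above control at 3 h and 1.32-fold at 24 h. Hmox1, haem oxygenase 1, had 49.1 in IM3h, 14.9 in IM24h and 1.19 in control. Of 24 NF-kB target and feedback genes, 10 were listed, and Birc3, Fas, Tlr2, Tnip1 and Trib1 were members. Of the 5 outside the set, 4 had the order. The exception was Nfkbie, an NF-kB inhibitor, with 1.68 in IM3h, 3.99 in IM24h and 0.829 in control.

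Of 20 genes of EGF receptor ligands and feedback only Areg and Errfi1 were listed. Of 32 early genes of calcium and synaptic activity, 12 were listed, and Arc, Csrnp1, Gem, Ifrd1, Nfil3 and Rgs16 were members. The 6 outside the set all had the order. Of 8 genes of the CIS and SOCS family, Cish and Socs3 were listed, and Socs3, a feedback inhibitor of STAT3 signalling, had 205 in IM3h, 81.8 in IM24h and 7.66 in control. Of 20 heat shock genes, 3 were listed. Hspa1b and Hspa1a had the order of the set, while Hspb1, a small heat shock protein, had 924 in IM3h, 2902 in IM24h and 513 in control. Of 19 Notch genes, 2 were listed. Dll1 was highest at 3 h, whereas Rbpj, the transcription factor of the Notch pathway, had 3.14 in IM3h, 7.74 in IM24h and 1.41 in control. Of 17 genes of FAS signalling and apoptosis control, 4 were listed. Fas, Birc3 and Tnfrsf12a had the order of the set, while Cflar, an inhibitor of death receptor signalling, had 3.62 in IM3h, 0.543 in IM24h and 1.44 in control. A gene outside both tables has no value here, so these counts cannot speak for the rest of a list.

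Markers of other cells followed different courses. Of 20 monocyte and macrophage markers 8 were listed, and their summed mean was 72.2 in IM3h, 329 in IM24h and 38.2 in control. Of 14 neutrophil markers 4 were listed, with a sum of 17.3 in IM3h, 239 in IM24h and 3.80 in control. Hence 11 of these 12 markers were higher at 24 h than at 3 h. The exception was Cd14, with 10.9 in IM3h, 7.38 in IM24h and 1.99 in control. Of 19 markers of intestinal epithelium 7 were listed, all with the order IM3h, control, IM24h, and a sum of 566 in IM3h, 71.5 in IM24h and 251 in control. Thus the epithelial markers were 2.26-fold above control in the IM3h libraries, where the 50 genes were highest as well, and their part in the 3 h levels was not tested. No marker of these 3 lists was a member. Procr, a member, was the only one of 10 endothelial markers listed. None of 13 smooth muscle, 11 neuronal and 6 interstitial cell markers was listed, so the labelled tissue could not be checked by them.

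**Figure D4:**
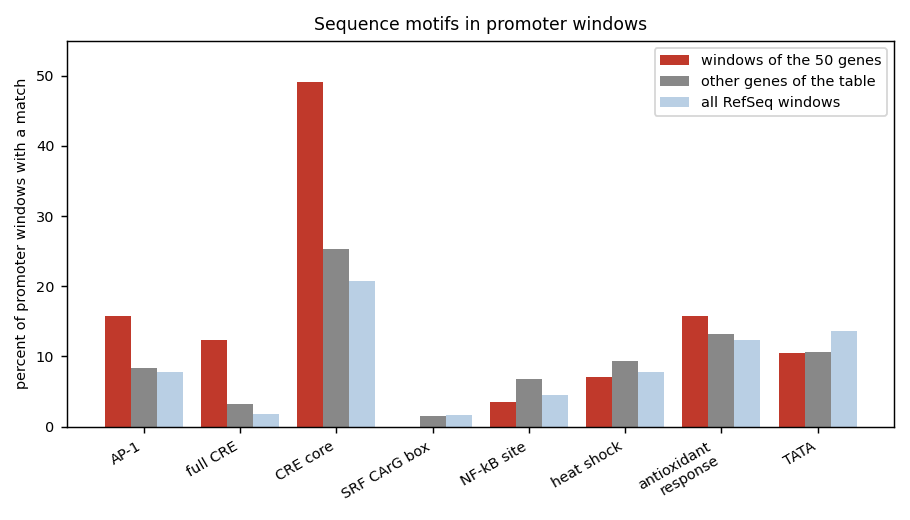
Percent of promoter windows with at least 1 match to each motif. Shown are the 57 windows of 40 of the 50 genes, 394 windows of other genes of the table and all 32851 RefSeq windows. The full CRE was found in 12.3% of windows of the set, 3.30% of the other genes and 1.79% of all windows, and no test was made.

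The share of windows with a CRE was higher in the set than in all windows. Both strands were searched. The full CRE was present in 12.3% of the 57 windows, in 3.30% of 394 windows of the other genes of the table and in 1.79% of all 32851 windows. Counted by gene, it was present in 15.0% of 40 genes of the set, 4.38% of 297 other changed genes and 2.03% of 27025 genes in all. The shorter CRE core TGACG, which every full CRE contains, was present in 49.1% of windows of the set, 25.4% of the other changed genes and 20.8% of all windows. AP-1 (TGANTCA, with any base at N) was present in 15.8% of windows of the set, 8.38% of the other changed genes and 7.81% of all windows. Of its 9 genes in the set, Dll1, Nasp and Sipa1l2 matched only with A or T at N, and the others with C or G. The windows of the set were richer in G and C, with 59.2% against 57.4% in the other changed genes and 53.8% in all windows, and the part of this composition in the CRE counts was not tested.

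The other motifs differed less from all windows in their share. The antioxidant response element (TGACNNNGC), which can overlap AP-1 as it does in Procr, was in 15.8% of windows of the set and 12.4% of all windows. It was found in 8 genes, namely Srxn1, Txnrd1, Csrnp1, Elf1, Procr, Rad52, Suv39h2 and Tmem183a. The heat shock element was in 7.02% of windows of the set and 7.86% of all, and the TATA letters in 10.5% of windows of the set and 13.6% of all. The NF-kB site was in 3.51% of windows of the set, those of Tlr2 and Tnip1, and in 4.51% of all. The CArG box of serum response factor was in none of the windows of the set and in 1.63% of all. In windows of the other changed genes, the antioxidant response element was in 13.2%, the heat shock element in 9.39% and the TATA letters in 10.7%. There the NF-kB site was in 6.85% and the CArG box in 1.52%. A match is a description of letters and not a bound site, and the CRE count rests on 6 genes. Of the 27 genes with a total of at least 90, 20 had a searched window, and the full CRE was present in 6.90% of their 29 windows.

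Transcripts of a gene gave few independent values. In 9 genes more than 1 transcript was listed, and in 7 of these the ratios to control were equal within 0.01 on the log2 scale, so that reads may have been shared among isoforms. The exceptions were Txnrd1, by 0.02 on the log2 scale, and Gnl3, whose transcripts differed by 0.40 on the log2 scale in the 24 h ratio. Of the genes above control at both times but higher at 24 h, Ipo7, an importin, lay nearest to the set. The IM24h mean of Ipo7 was 2.002-fold above its IM3h mean. Of the genes above control at 3 h but below it at 24 h, Ces2c, a carboxylesterase, lay nearest. The IM24h mean of Ces2c was 2.02-fold below control. The 2-fold steps of the table allow nothing nearer.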

How the data were processed

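The study sequenced 3' ends of polyadenylated RNA (QuantSeq 3' kit, single-end) from 9 libraries. The authors deposited tables made with Partek, in which the 3 libraries of a group are given as 1 mean (an expression signal in normalized counts), together with a total over the 9 libraries. The Partek version, the aligner, the genome build and the normalization are not given in the sources used here. The tables also hold the authors' own p-values, FDR, ratios and fold changes per contrast, and a table of GO terms, none of which were used. Depth per library is unknown, and only low totals show where values rest on few counts.

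Ratios, the percent of the IM3h mean and the excess left at 24 h were computed from the group means with Python 3.11.15 and pandas 2.3.3, and figures were drawn with matplotlib 3.10.9. The scripts were tested on simulated data. A gene with several transcripts was represented by the one with the highest total. No test was run, because the values are group means and the rule had used them. The genes of the set are named except for 1 that is not reported here, though it counts in the 50 and in their medians. Values in all 3 groups are given for those named genes whose total reached 90, for the 5 largest and 5 smallest in the 3 h ratio, the 24 h ratio and the excess left, and for some others chosen after their values were seen. Genes, pathway and marker lists and motifs were chosen with earlier results of these data known. Alternatives were a pseudocount of 1, a minimum total of 90, every transcript in place of 1 per gene, counting the left-out genes, and promoter windows that end at the start. Promoter windows are from RefSeq (GRCm38.p6) and were matched by symbol, and those on chromosome 18 were left out for the set alone. No column of single libraries was used.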

Additional observations from a re-analysis of the deposited data

How the results depend on the processing

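Of 40 alternative values, 33 stayed within 1.5 times of the value reported, among them the median ratios and the median excess left. With a total of at least 90 the count of genes at least 4-fold above control was 27 at 3 h and 7 at 24 h, because only 27 genes were counted. The full CRE was then present in 6.90% of 29 windows in place of 12.3% of 57, and the cause was not tested. With a pseudocount of 1, 6 genes in place of 13 lay at least 4-fold above control at 24 h, since low control means weigh less. When the left-out genes were counted, 76 genes lay at least 4-fold above control at 3 h, 28 at 24 h, and 18 had an IM24h mean at least 4-fold below the IM3h mean.

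No replicate could be left out and no paired analysis was possible because the tables hold group means and the labels give no shared replicate numbers. A control mean under 1 was found in 12 of the 50 genes and one from 1 to under 2 in 14, so ratios of these genes rest on few counts.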
